A study of Oryza sativa with 12 samples.

Results

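The 200 well-expressed gene IDs that start with EPlOING were followed through the leaves of an indica hybrid rice, TU100, under 4 treatments. They were chosen by their mean level over all 12 libraries, as the highest of the EPlOING IDs, out of 47693 EPlOING IDs and 88438 IDs in all. The other IDs, 40745 of them, start with BGIOSGA. Leaves came from plants 1 month old and were given azoxystrobin, VdAL, both agents (labelled VdAL+ azoxystrobin and here called the combination) or water, with 3 libraries in each group. The labels name no mutation or transgene and no dose or time after treatment. They mention 4 areas without tying plants to them, so area and treatment cannot be told apart here. The labels also leave unsaid whether replicates were separate plants. The p-values therefore reflect the spread among the libraries at hand, which may be technical.

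Azoxystrobin is a strobilurin fungicide. It binds complex III of the mitochondrial respiratory chain and so blocks electron flow to oxygen, in the fungus and, at sufficient exposure, in plant mitochondria. VdAL is not expanded in the labels. The files give no name, sequence or position for any EPlOING ID, so none can be given a function. Among the 39387 genes of a japonica reference table (assembly ASM3414082v1), 0 of the 200 were found. The same lookup matched 0 of all IDs, BGIOSGA IDs included, so it shows nothing particular to the members. For lack of names the leaf label could not be checked against marker genes. In bulk tissue a lower level may mean less RNA per cell or fewer of the cells that hold it, and these cannot be told apart.

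Levels are in CPM, the count of an ID scaled to a library of fixed size. The ranking used CPM over all reads assigned to IDs. All other levels of single IDs are CPM on TMM-scaled library sizes (TMM, a trimmed mean that sets the bulk of tested IDs equal between libraries). Reads assigned to IDs ranged from 6444650 to 10144564 per library. Of the EPlOING IDs, 39758 had 0 reads in every library and 7935 had at least 1 read, against 28597 BGIOSGA IDs with at least 1 read. The filter on low counts left 1300 EPlOING IDs (2.73%) and 20081 BGIOSGA IDs (49.3%), and all 200 members passed it. The lowest count of any member in any library was 19 reads.

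The 200 IDs together held 0.787% to 0.972% of the assigned reads. The lowest share was that of water replicate 3 (95% Wilson interval 0.78% to 0.793%) and the highest that of water replicate 1 (0.965% to 0.979%), where the intervals cover counting error only. The share averaged 0.858% ± 0.033 in azoxystrobin, 0.859% ± 0.00964 in VdAL, 0.841% ± 0.0349 in the combination and 0.877% ± 0.0926 in water (SD, n = 3 each). The treated libraries all lay inside the range of the water libraries. The differences between group means of the log2 summed CPM were −0.03 for azoxystrobin, −0.02 for VdAL and −0.06 for the combination, each against water, and without water replicate 1 they were 0.05, 0.05 and 0.02. With TMM-scaled CPM the differences were −0.12, −0.11 and −0.05. No direction is given for the summed level.

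The level was concentrated in few IDs. The 10 highest held 40.4% of the members' summed mean CPM and the 5 highest 29.5%. There were 15 members at a mean of 100 CPM or more, 17 at 50 to 100, 62 at 20 to 50 and 106 under 20, with a median of 19.4 CPM. The members took 65.7% of all reads in EPlOING IDs. The highest of them stood at place 117 among all IDs, and 12234 BGIOSGA IDs (30%) had a mean at or above that of the last member. At the edge of the choice, the last 2 members, EPlOING00000034673 and EPlOING00000023754, had mean levels of 10.31 and 10.26 CPM, and the first 2 IDs outside it, EPlOING00000043867 and EPlOING00000040423, had 10.23 CPM each.

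EPlOING00000032177 was the highest member. It stood at 647, 734 and 678 CPM in azoxystrobin, 790, 672 and 641 CPM with VdAL, 762, 748 and 738 CPM in the combination, and 766, 806 and 735 CPM in water. Every azoxystrobin library lay below every water and every combination library, and VdAL overlapped with all the other groups. The gap to water was narrow, 733.6 CPM in azoxystrobin replicate 2 against 734.5 CPM in water replicate 3. It did not hold without TMM scaling. There azoxystrobin replicate 2, at 757 CPM, lay above water replicates 1 and 3, at 727 and 716 CPM, and above every combination library. Among the 200 this ID had the smallest ratio of highest to lowest library, 1.26 in TMM-scaled CPM. Its log2 fold change against water was −0.16 for azoxystrobin (95% interval −0.40 to 0.07), −0.13 for VdAL (−0.37 to 0.10) and −0.04 for the combination (−0.27 to 0.19), so a change of 2-fold lay outside all 3 intervals.

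EPlOING00000029374, the next, had 665, 528 and 665 CPM in azoxystrobin, 536, 550 and 579 CPM with VdAL, 580, 617 and 510 CPM in the combination, and 836, 542 and 538 CPM in water. The high library was water replicate 1, and the same library was the highest of its group for EPlOING00000030533, with 776 CPM against 473 and 495 CPM in the other water libraries, and for EPlOING00000031598, with 484 CPM against 215 and 283 CPM. EPlOING00000030533 averaged 499 ± 48.8 CPM in azoxystrobin, 462.5 ± 23.1 CPM with VdAL, 593 ± 58.9 CPM in the combination and 581 ± 169 CPM in water. EPlOING00000031598 averaged 279 ± 26.4, 278 ± 48.5, 369 ± 87.0 and 327 ± 140 CPM in azoxystrobin, VdAL, the combination and water (SD, n = 3 each). Water had the widest spread for these 3 IDs.

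EPlOING00000031550 averaged 200.3 ± 24.5 CPM in azoxystrobin, 302 ± 61.0 CPM with VdAL, 221 ± 30.6 CPM in the combination and 259 ± 69.5 CPM in water. EPlOING00000034505 averaged 189 ± 17.0, 208 ± 11.0, 178 ± 7.93 and 195 ± 47.1 CPM in that order of groups, and EPlOING00000003024 averaged 127 ± 16.2, 120.0 ± 22.2, 155 ± 15.2 and 148 ± 30.0 CPM (SD, n = 3 each). None of these 3 passed the test in any comparison. The other members among the 10 highest, EPlOING00000030568, EPlOING00000030572 and EPlOING00000030335, did in at least 1 and are described with those comparisons.

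**Figure D1:**
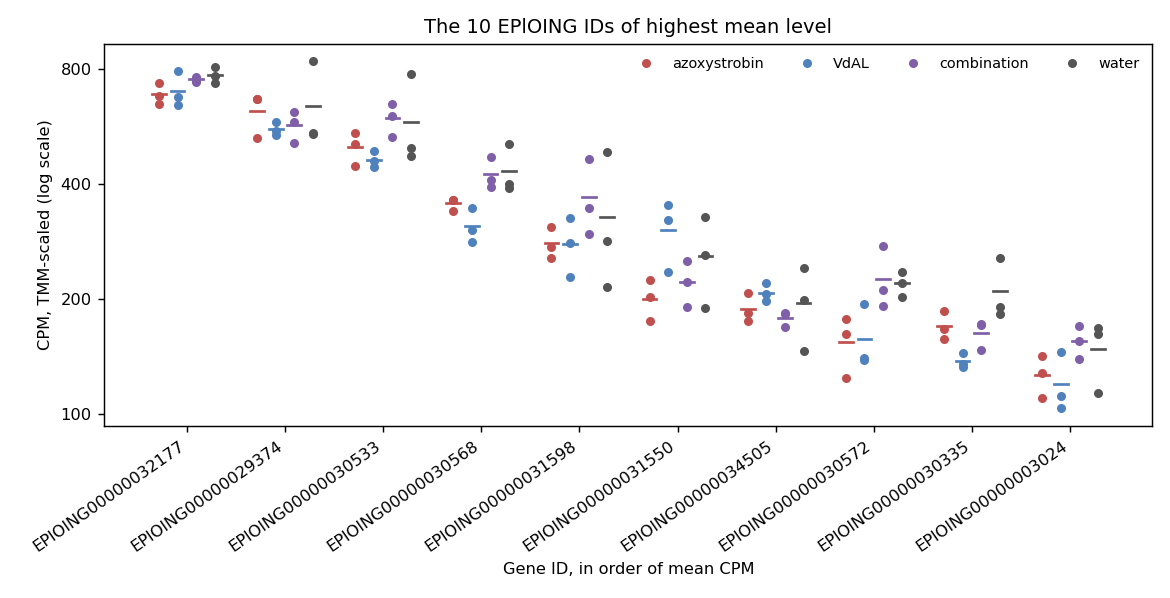
Level of the 10 EPlOING IDs of highest mean CPM in every library, as TMM-scaled CPM on a log axis, with a point per library and a bar at the mean of each group (azoxystrobin, VdAL, combination and water from left to right). For 6 of the 10 IDs all 3 treatments overlap with water, a count that was not made over all tested IDs. EPlOING00000032177 stays between 641 and 806 CPM in all 12 libraries.

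Changes were tested with edgeR's quasi-likelihood test over all 12 libraries and all 21381 tested IDs, and an ID is called where its Benjamini-Hochberg adjusted p over those IDs was under 0.05. Log2 fold changes carry an approximate standard error (SE), worked back from the size of the change and the F statistic of the test. In all, 13 of the 200 members were called in at least 1 of 7 comparisons. Against water, 11 were called at least once, 1 of them in all 3 treatments, 1 in 2 and 9 in 1. These joint counts were not made over all tested IDs, so whether they are many or few cannot be told. Shares for each comparison are given below. The 3 comparisons share the water libraries, so their values for the same ID are not independent. The interaction shares them too.

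Azoxystrobin against water gave 2 called members, both lower, or 1% of the 200, where 2.66% of all tested IDs were called (0.538% higher and 2.12% lower). EPlOING00000046540 stood at 8.27, 2.67 and 6.74 CPM in azoxystrobin, against 22.1, 37.0 and 10.5 CPM in water. The groups did not overlap, though the lowest water library, replicate 3, lay near the highest azoxystrobin library. The log2 fold change was −1.97 (SE 0.43, edgeR adjusted p = 0.0222). EPlOING00000035857 stood at 25.8, 16.0 and 17.2 CPM in azoxystrobin, against 41.9, 63.3 and 28.6 CPM in water. Here too no azoxystrobin library reached the lowest water library, and the log2 fold change was −1.19 (SE 0.27, edgeR adjusted p = 0.0235).

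The number of members called for azoxystrobin turned on single libraries. It was 0 without azoxystrobin replicate 2 or replicate 3, 1 without water replicate 1 or replicate 2, 6 without VdAL replicate 1 and 7 without water replicate 3. Over all tested IDs the share called was 1.41% and 0.594% without azoxystrobin replicates 2 and 3, 1.15% and 2.39% without water replicates 1 and 2, 3.46% without VdAL replicate 1 and 2.57% without water replicate 3, so it moved with the libraries too. Both calls were lost without azoxystrobin replicate 2 or 3 and without water replicate 1 or 2. They were also lost in the fit of the compared groups only (edgeR adjusted p = 0.0545 for EPlOING00000046540 and 0.0579 for EPlOING00000035857). Over all alternatives the log2 values ran from −2.32 to −1.44 for EPlOING00000046540 and from −1.43 to −0.83 for EPlOING00000035857. With library sizes alone, without scaling factors, 3 members were called higher and 2 lower. An unadjusted p under 0.05 was found for 37 members (17 higher and 20 lower), or 18.5%, beside 16.8% of all tested IDs. The members' median log2 fold change was −0.03, and it was −0.02 over all tested IDs.

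VdAL against water gave 8 called members, 7 lower and 1 higher. That is 4% of the 200, where 3.55% of all tested IDs were called (2.84% lower and 0.702% higher). EPlOING00000046190, with the smallest p, stood at 113, 73.5 and 76.7 CPM with VdAL, against 163, 169 and 168 CPM in water. The groups did not overlap, and the water libraries lay within a narrow band of 167 ± 3.51 CPM (SD, n = 3). The log2 fold change was −0.92 (SE 0.18, edgeR adjusted p = 0.00801). EPlOING00000025433 stood at 17.3, 15.7 and 12.3 CPM with VdAL, against 27.9, 34.6 and 30.2 CPM in water, and fell by 1.03 (SE 0.22, edgeR adjusted p = 0.0158), again without overlap. Each call was kept in 19 of 20 alternatives and lost without VdAL replicate 3.

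The member called higher in VdAL was EPlOING00000043782. It had 22.4, 25.5 and 20.6 CPM with VdAL, against 12.9, 17.0 and 13.3 CPM in water. Every VdAL library lay above every water library, and the log2 fold change was 0.66 (SE 0.17, edgeR adjusted p = 0.0384). This call was lost in 10 of 20 alternatives, among them those that left out water replicate 1 or 3, any 1 of the VdAL libraries, azoxystrobin replicate 1 or combination replicate 1, with log2 values from 0.57 to 0.82.

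Of the 10 highest members, EPlOING00000030335 and EPlOING00000030568 were called lower in VdAL. EPlOING00000030335 had 135, 133 and 144 CPM with VdAL, against 257, 183 and 190 CPM in water. No library of one group reached the other, and the log2 fold change was −0.61 (SE 0.13, edgeR adjusted p = 0.0181). The call was lost without water replicate 1, VdAL replicate 2 or VdAL replicate 3, and in the fit of the compared groups only. EPlOING00000030568 had 345, 303 and 281 CPM with VdAL, against 509, 400 and 389 CPM in water. It fell by 0.48 (SE 0.13, edgeR adjusted p = 0.046), a call close to the threshold that was lost in 12 of 20 alternatives, RLE factors and library sizes alone among them and the fits that left out water replicates 1 and 2, VdAL replicates 2 and 3, combination replicates 1 and 3 and all 3 azoxystrobin libraries in turn.

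The other members called lower in VdAL were EPlOING00000046540, at a log2 fold change of −1.65, EPlOING00000026218 at −1.96 and EPlOING00000029995 at −0.81. For EPlOING00000046540 VdAL replicate 1 stood at 11.1 CPM and water replicate 3 at 10.5 CPM, so the groups overlapped. This call was lost without water replicate 1 or 2, azoxystrobin replicate 3, VdAL replicate 2 or 3, or combination replicate 3. That of EPlOING00000026218 was lost with DESeq2 and without the same libraries or combination replicate 1, and that of EPlOING00000029995 without water replicate 1 or 3 or any 1 of the VdAL libraries. The number of members called was 0 without VdAL replicate 3, 2 without VdAL replicate 2 and 3 without water replicate 1, and it was 5 without azoxystrobin replicate 3, combination replicate 1 or combination replicate 3. The share of all tested IDs called was 0.665%, 2.23% and 1.97% without the first 3 of these libraries, and 3.14%, 2.82% and 3.19% without the others. With library sizes alone 4 members were called higher and 5 lower. The members' median log2 fold change was 0.04, and it was −0.01 over all tested IDs. An unadjusted p under 0.05 was found for 33 members, or 16.5%, beside 16.1% of all tested IDs.

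The combination against water gave 4 called members, 2 higher and 2 lower, or 2% of the 200, where 1.71% of all tested IDs were called (0.491% higher and 1.22% lower). EPlOING00000003367 stood at 28.2, 39.9 and 27.1 CPM in the combination, against 16.3, 15.5 and 16.4 CPM in water. All combination libraries lay above all water libraries. The log2 fold change was 0.98 (SE 0.18, edgeR adjusted p = 0.00892), and it stayed called in 20 of 20 alternatives with log2 values from 0.78 to 1.08. Its levels were 22.6, 22.3 and 27.7 CPM with azoxystrobin and 19.5, 23.9 and 23.6 CPM in VdAL. These also lay above every water library, at log2 values of 0.59 (95% interval 0.22 to 0.97) and 0.47 (0.10 to 0.85), but neither passed the test (edgeR adjusted p = 0.0861 and 0.176).

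EPlOING00000025640 stood at 79.5, 89.9 and 61.1 CPM in the combination, against 47.0, 43.9 and 56.1 CPM in water. The groups did not overlap, with combination replicate 3 nearest to water. It rose by 0.65 (SE 0.15, edgeR adjusted p = 0.0366). This call was lost without water replicate 1 or 2, azoxystrobin replicate 3, or combination replicate 1 or 2. It was also lost with a replicate block and in the fit of the compared groups only (edgeR adjusted p = 0.0573 and 0.0898). The members called lower were EPlOING00000035857, at 16.1, 23.3 and 17.1 CPM in the combination (log2 −1.25, SE 0.27, edgeR adjusted p = 0.0244), and EPlOING00000046540, at 4.59, 8.60 and 5.86 CPM (log2 −1.88, SE 0.44, edgeR adjusted p = 0.0369). Both are the IDs called lower in azoxystrobin, measured against the same water libraries, and both calls were lost without water replicate 1 or 2 and without combination replicate 1 or 3. The call of EPlOING00000046540 was also lost without combination replicate 2 or azoxystrobin replicate 3, and with a replicate block. In the fit of the compared groups only, both calls were lost.

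The number of members called in the combination was 1 when water replicate 1, water replicate 2 or combination replicate 1 was left out, 2 when azoxystrobin replicate 3 was, and 14 when water replicate 3 was, 7 of these higher and 7 lower. Without these 5 libraries, 0.902%, 0.611%, 0.629%, 1.47% and 3.24% of all tested IDs were called. The members' median log2 fold change was −0.05, and it was −0.01 over all tested IDs. An unadjusted p under 0.05 was found for 35 members (18 higher and 17 lower), or 17.5%, beside 14.4% of all tested IDs.

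EPlOING00000046540 was the member called lower in all 3 treatments. It averaged 5.89 ± 2.89 CPM in azoxystrobin, 7.39 ± 3.19 CPM with VdAL, 6.35 ± 2.05 CPM in the combination and 23.2 ± 13.3 CPM in water (SD, n = 3 each). Its dispersion between replicates was 2.82 times the trend at its level, and its water libraries alone spread from 10.5 to 37.0 CPM. EPlOING00000035857 averaged 25.3 ± 6.33 CPM with VdAL, where its log2 fold change was −0.83 (95% interval −1.38 to −0.28, edgeR adjusted p = 0.0949).

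**Figure D2:**
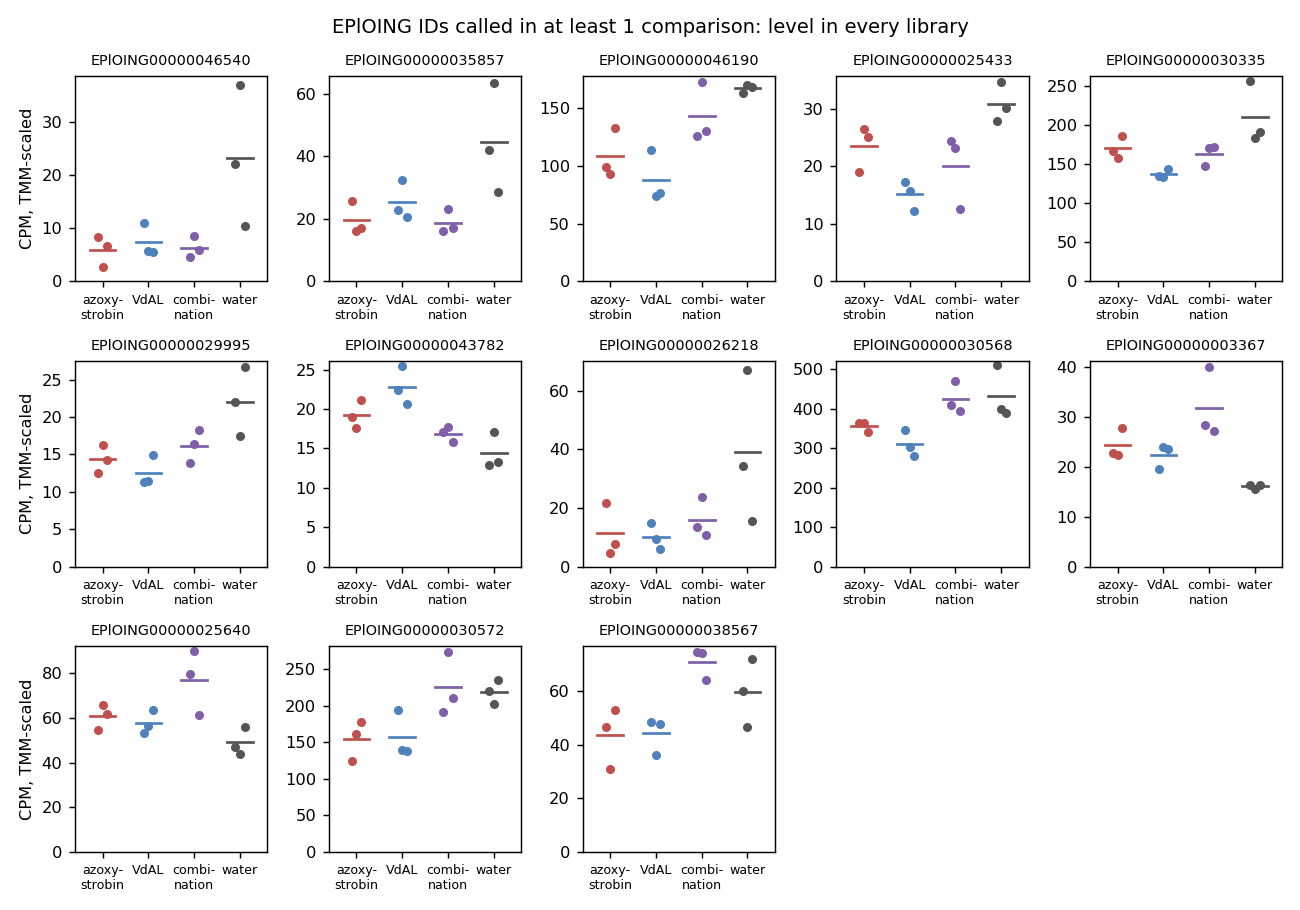
Level of the 13 EPlOING IDs called in at least 1 comparison, as TMM-scaled CPM on linear axes that start at 0, with a point per library (replicates 1 to 3 from left to right) and a bar at the mean of each group. EPlOING00000046540 and EPlOING00000026218 have their highest library in water replicate 2, at 37.0 and 67.0 CPM, while the water libraries of EPlOING00000046190 and EPlOING00000003367 lie close together.

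Direct comparisons between the treated groups gave 0 called members. For the combination against azoxystrobin the smallest edgeR adjusted p among the members was 0.154, where 0% of all tested IDs were called, and 19 members had an unadjusted p under 0.05 (13 higher and 6 lower), or 9.5%, beside 12% of all tested IDs. DESeq2 called 2 (1%, beside 1.04% of the IDs it gave an adjusted p). The fit of the compared groups only called 0 members, beside 0.713% of all tested IDs. For the combination against VdAL the smallest edgeR adjusted p was 0.103, where 0.0187% of all tested IDs were called (0.00935% in each direction), and 25 members had an unadjusted p under 0.05 (14 higher and 11 lower), or 12.5%, beside 12.8% of all tested IDs. DESeq2 called 3 (1.5%, beside 1.73%), and the count was 1 without VdAL replicate 1 (0.5%, beside 0.264%). In the fit of the compared groups only it was 5 (2.5%, beside 1.9%). For VdAL against azoxystrobin the smallest edgeR adjusted p was 0.298, where 0% of all tested IDs were called, 11 members had an unadjusted p under 0.05 (7 higher and 4 lower), or 5.5%, beside 3.36% of all tested IDs, and DESeq2 called 1 (0.5%, beside 0.0327%).

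Such counts leave real differences possible. The 95% interval of the difference lay within 2-fold in either direction for 169 members between the combination and azoxystrobin, for 168 between the combination and VdAL and for 179 between VdAL and azoxystrobin. For the remaining 31, 32 and 21 members a difference of 2-fold or more lay inside the interval. Estimates lay below 0 for 116, 128 and 96 of the 200 members in these comparisons, or 58%, 64% and 48%, beside 49.7%, 50.3% and 49.8% of all tested IDs, with medians of −0.05, −0.07 and 0.01.

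The member with the smallest p between VdAL and azoxystrobin was EPlOING00000001828, named here after its values were seen. It stood at 26.8, 26.5 and 20.3 CPM with VdAL, against 11.1, 6.75 and 10.7 CPM in azoxystrobin. The groups did not overlap, and the log2 difference was 1.36 (95% interval 0.88 to 1.83, edgeR adjusted p = 0.298 over all tested IDs). The ID with the preceding number, EPlOING00000001827, had 26.7, 27.8 and 17.4 CPM with VdAL, against 11.2, 10.7 and 15.7 CPM in azoxystrobin, also without overlap, at a log2 difference of 0.93 (edgeR adjusted p near 1). Over the 12 libraries their log2 CPM correlated at r = 0.807, and at 0.552 after removal of the treatment means.

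The crossed layout lets the effect of VdAL be set against its own size once azoxystrobin is present, as an interaction, and where it is positive, the level under both agents exceeds what adding their separate log2 effects gives. It was called in 4 members, all positive, or 2% of the 200, where 3.8% of all tested IDs were called (3.36% positive and 0.44% negative). EPlOING00000046190 had the smallest p. It stood at 125, 172 and 130 CPM in the combination, 98.8, 92.9 and 133 CPM with azoxystrobin and 113, 73.5 and 76.7 CPM with VdAL, against 163, 169 and 168 CPM in water. Combination replicate 2 lay above all water libraries, and combination replicates 1 and 3 lay under the highest azoxystrobin library. The interaction was 1.32 (SE 0.25, edgeR adjusted p = 0.00731), and it stayed called in 19 of 19 alternatives with log2 values from 1.13 to 1.66.

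EPlOING00000030572 had 191, 275 and 211 CPM in the combination, 124, 162 and 177 CPM with azoxystrobin and 194, 140 and 138 CPM with VdAL, against 220, 203 and 236 CPM in water. The combination overlapped with water, and no azoxystrobin or VdAL library reached the lowest water library. Its interaction was 1.02 (SE 0.24, edgeR adjusted p = 0.0236), lost without azoxystrobin replicate 1, VdAL replicate 2 or 3, or combination replicate 2. The other called members were EPlOING00000030568, at 0.74 (SE 0.18, edgeR adjusted p = 0.0325), and EPlOING00000038567, at 1.13 (SE 0.27, edgeR adjusted p = 0.0289), the second named because the count is small. EPlOING00000038567 averaged 71.1 ± 5.86 CPM in the combination, 43.6 ± 11.4 CPM with azoxystrobin and 44.3 ± 6.86 CPM with VdAL, against 59.6 ± 12.8 CPM in water, and EPlOING00000030568 averaged 424 ± 41.0, 355.5 ± 13.4, 310 ± 32.7 and 433 ± 66.4 CPM in the same order (SD, n = 3 each). Both calls were lost in 8 of 19 alternatives, library sizes alone among them. Both were lost without water replicate 1, VdAL replicate 2 or 3, or combination replicate 1 or 2, the call of EPlOING00000038567 also without water replicate 3 and that of EPlOING00000030568 also without azoxystrobin replicate 1 or 3.

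With library sizes alone the interaction was called in 6 members, 2 positive and 4 negative, and the median interaction of all tested IDs stood at −0.19, against −0.00132 with TMM. DESeq2 gave 7 positive and 4 negative. These are 3% and 5.5% of the members, beside 4.54% and 6.84% of all tested IDs. The count was 1 without VdAL replicate 2, VdAL replicate 3 or combination replicate 2, 9 without water replicate 2 and 13 without VdAL replicate 1. Without these 5 libraries, 2.55%, 1.42%, 1.32%, 5.71% and 5.66% of all tested IDs were called. The median interaction of the members was −0.08 with TMM and −0.27 with library sizes alone. None of the 4 was called between the combination and a single treatment.

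**Figure D3:**
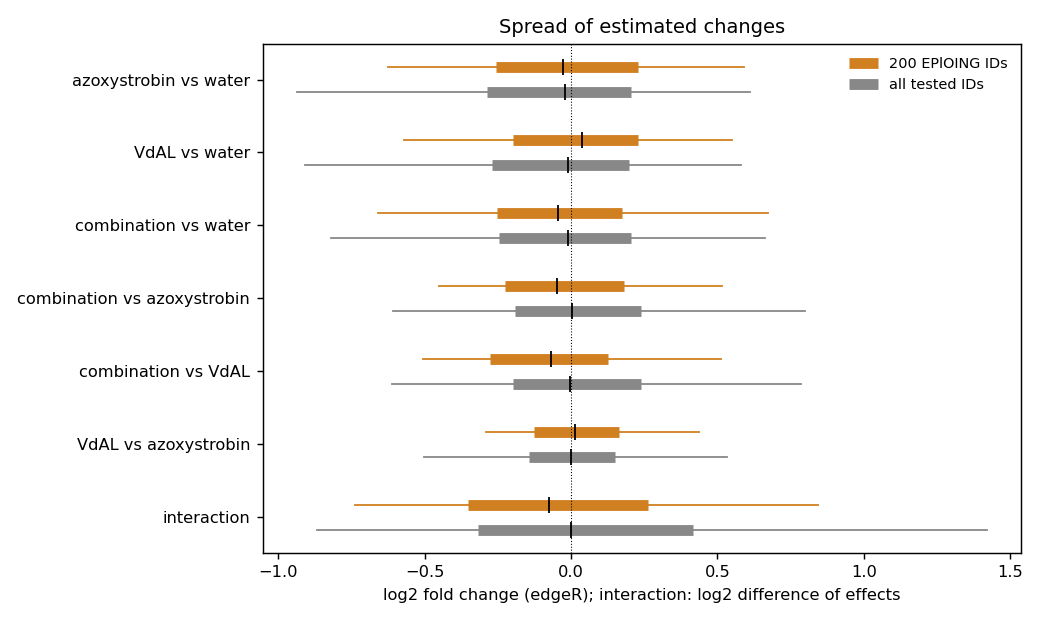
Spread of the estimated log2 fold changes of the 200 EPlOING IDs and of all 21381 tested IDs in 7 comparisons, with a tick at the median, a thick bar from the 25th to the 75th percentile and a thin line from the 5th to the 95th. The medians lie near 0 in both sets, and the thin lines of the 200 IDs are shorter than those of all tested IDs toward lower values in every comparison.

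Large estimated changes were few among the members. A 2-fold change or more was estimated for 3 members (1.5%) in each comparison with water, where 5.69%, 5.13% and 4.8% of all tested IDs had one in azoxystrobin, VdAL and the combination. The median size of the log2 change, whatever its sign, was 0.25, 0.22 and 0.23 in the members and 0.24, 0.23 and 0.23 over all tested IDs. The 95% interval lay within 2-fold for 161 members (80.5%) for azoxystrobin, 165 (82.5%) for VdAL and 158 (79%) for the combination, each against water, beside 64%, 64.7% and 64.9% of all tested IDs. The members were chosen for a high level, and the tested IDs include many at low levels.

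Replicates of the members spread more than the trend for their level. The dispersion of an ID relative to edgeR's trend over all tested IDs at the same level had a median of 1.13 in the members, 1.02 in the other 1100 tested EPlOING IDs and 0.845 in the tested BGIOSGA IDs. It was above 1 in 125 members (62.5%), against 33.2% of the BGIOSGA IDs.

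The member with the highest dispersion, EPlOING00000024086, had 42.8, 38.5 and 60.0 CPM in azoxystrobin, 65.4, 27.6 and 46.2 CPM with VdAL, 39.9, 61.6 and 84.1 CPM in the combination, and 32.8, 16.1 and 104 CPM in water. Its dispersion was 7.34 times the trend. The highest and the lowest of its 12 libraries were both water libraries. EPlOING00000026218, at 5.85 times the trend, had 21.8, 4.78 and 7.71 CPM in azoxystrobin, 14.9, 9.32 and 6.07 CPM with VdAL, 13.5, 23.6 and 10.6 CPM in the combination, and 34.4, 67.0 and 15.6 CPM in water. Its highest VdAL library and its lowest water library nearly met.

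The lowest dispersions were those of EPlOING00000042639, at 0.541 times the trend, and EPlOING00000047754, at 0.549. EPlOING00000047754 had 15.3, 17.6 and 17.8 CPM in azoxystrobin, 14.1, 16.3 and 15.0 CPM in VdAL and 19.9, 19.0 and 22.5 CPM in the combination, against 11.1, 11.7 and 14.9 CPM in water. The combination lay above water in all libraries, at a log2 fold change of 0.70 (SE 0.17), and missed the threshold narrowly (edgeR adjusted p = 0.0506). EPlOING00000042639 averaged 11.3 ± 0.555 CPM in azoxystrobin, 15.0 ± 2.08 CPM with VdAL, 11.0 ± 1.57 CPM in the combination and 9.49 ± 0.86 CPM in water (SD, n = 3 each).

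**Figure D4:**
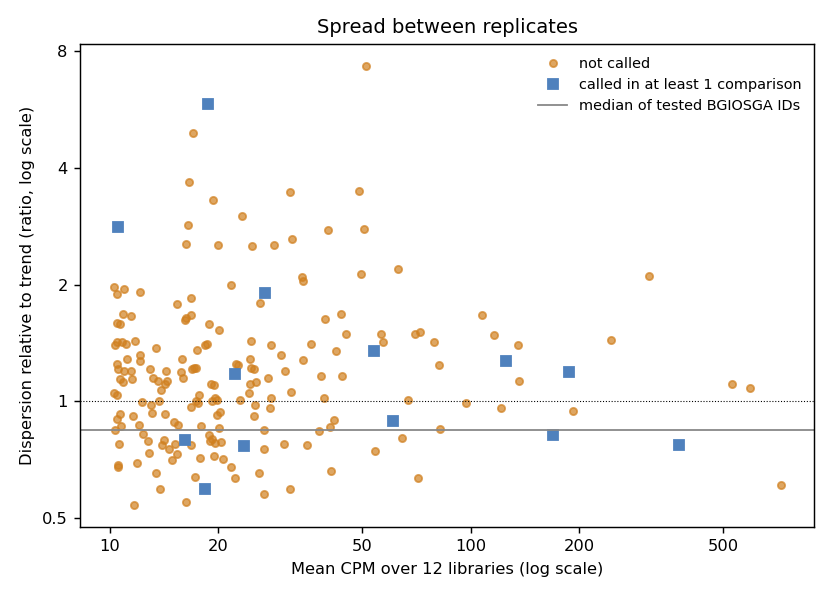
Dispersion between replicates relative to edgeR's trend at the same level, against mean CPM over the 12 libraries, both on log axes, for the 200 EPlOING IDs. The dotted line marks a ratio of 1 and the grey line the BGIOSGA median of 0.845; 125 of the 200 points lie above the dotted line, and called IDs (squares) lie on both sides of it.

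The libraries of a treatment did not always stay together when ordered by the 200 IDs, and those of water lay furthest apart. In a principal component analysis of the log2 CPM of the 200 IDs, the leading component held 31.2% of the variance and the next 21%. On the leading component, whose sign is arbitrary, the azoxystrobin libraries stood at 0.86, −2.20 and −1.23, the VdAL libraries at 2.33, −0.52 and −0.38, the combination libraries at −1.54, −2.61 and −2.74, and the water libraries at 5.52, 5.40 and −2.89. Water replicates 1 and 2 held the highest scores and water replicate 3 the lowest of all 12. On the next component the highest scores were those of VdAL replicates 2 and 3, at 2.98 and 2.85, and the lowest those of water replicates 2 and 3, at −3.15 and −4.66. Water replicate 3 was nearest the combination libraries on the leading component.

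Water replicate 3 also differed in how its reads were assigned. Reads not aligned uniquely made up 12.1% to 15.7% of the recorded reads in azoxystrobin, 15.3% to 22.4% in VdAL, 12.6% to 13% in the combination, and 15%, 16.1% and 9.01% in water replicates 1, 2 and 3, the last of these the lowest of all. The share of reads matched to no gene ID was highest in that library, at 49.6%. With that share of multiply aligned reads as a covariate in the fit, 5 members were called in azoxystrobin, 9 in VdAL, 6 in the combination and 6 for the interaction, or 2.5%, 4.5%, 3% and 3% of the 200, beside 3.76%, 3%, 1.99% and 2.52% of all tested IDs. Their part in the component scores was not tested.

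The 10 IDs of largest weight carried 38.4% of the leading component, and they are named after their values were seen. EPlOING00000046540 (6.99%), EPlOING00000026218 (5.91%), EPlOING00000032770 (3.1%) and EPlOING00000035857 (2.4%) were high where water replicates 1 and 2 were, and EPlOING00000047282 (5.17%), EPlOING00000031720 (4%) and EPlOING00000025374 (3.17%) were low there. EPlOING00000046540 and EPlOING00000026218 correlated at r = 0.905 over the 12 libraries and at 0.902 after removal of the treatment means. EPlOING00000047282 had 9.73, 19.0 and 18.5 CPM in azoxystrobin, 20.4, 13.4 and 16.0 CPM with VdAL, 19.3, 22.4 and 28.4 CPM in the combination, and 13.7, 2.01 and 21.9 CPM in water. Water replicate 2 was its lowest library by a wide margin, and its ratio of highest to lowest TMM-scaled CPM, 14.1, was the largest of the 200. Among all 19900 pairs of members the median r was 0.0923, so most pairs did not vary together.

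**Figure D5:**
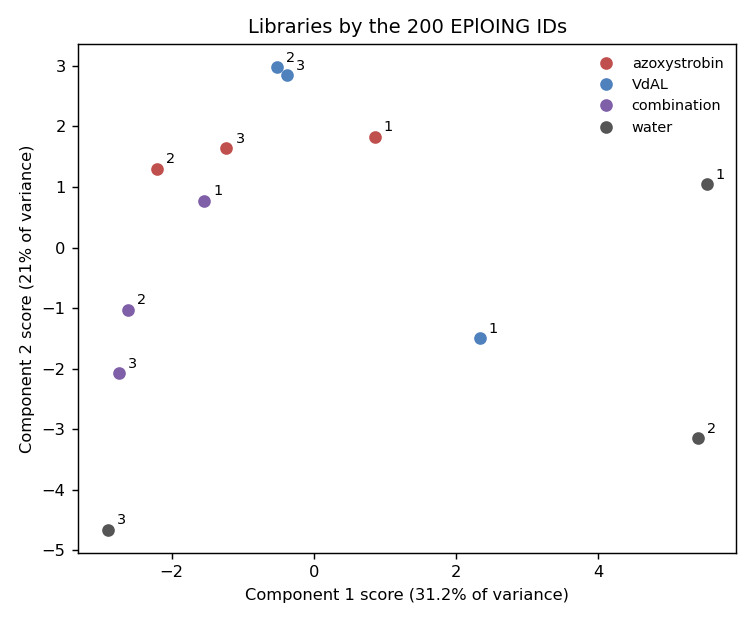
The 12 libraries by the first and second principal components of the log2 CPM of the 200 EPlOING IDs, coloured by treatment and marked with the replicate number. Water replicates 1 and 2 lie alone at the right, at 5.52 and 5.40, and water replicate 3 lies at the lower left, at −2.89 and −4.66.

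Members were unevenly placed in the numbering of the EPlOING IDs. With all 47693 IDs in order of their number and cut into 4 equal stretches, these held 20, 12, 101 and 67 members. The tested EPlOING IDs were split 220, 164, 505 and 411. The numbers are those of the annotation and nothing in the files says whether neighbours in number are neighbours in the genome. Only 3 pairs of members had consecutive numbers. Beside EPlOING00000001827 and EPlOING00000001828, EPlOING00000025530 and EPlOING00000025531 correlated at −0.268 and EPlOING00000029626 and EPlOING00000029627 at −0.211 over the 12 libraries. After removal of the treatment means these values were 0.317 and −0.0149.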

How the data were processed

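RNA from 12 leaf samples was read as 125 bp paired ends, per the labels' protocols. The authors deposited a raw read count per gene ID and library. The submitters' processing notes name TopHat2 2.1.0, HTSeq 0.6.1 and edgeR 3.16.3, and the pig build Sscrofa 10.2, which the rice IDs do not bear out. The sources used here give neither the counting mode nor the strand setting or annotation release. Reads with several equally good positions are outside the counts, so IDs with close copies may be undercounted, and reads of antisense neighbours may be mixed. Reads outside any gene held 42.2% to 49.6% of recorded reads, reads not aligned uniquely 9.01% to 22.4% and reads that fit more than 1 gene 0.646% to 0.833%. All were left out of library sizes.

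Counts were fitted with edgeR 4.0.16 in R 4.3.3 (filterByExpr with a minimum count of 10, TMM, a group-means model over 12 libraries, 8 residual degrees of freedom, prior 8.9). The procedure was also run on counts simulated from this same fit, which checks the code and not the model. Intervals use the approximate SE and the t distribution. Principal components and correlations use log2 CPM (prior count 2). The alternatives were RLE factors, library sizes alone, scaling on the BGIOSGA IDs, no filter, DESeq2 1.42.0, the compared groups only, a covariate, a replicate block and leaving out each library.

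The members, lists and tests were chosen with earlier results of these data known. The IDs named are the 10 highest members, per comparison at most 2 called higher and 2 lower by smallest p, the 4 at the edge of the choice, and the 2 highest and 2 lowest in dispersion relative to trend. Others are named where the text says so, or to complete a small count. Replicates differed by at least 4.36 in chi-square per degree of freedom, so none looked like a repeat of another.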

Additional observations from a re-analysis of the deposited data

Results flagged for a closer look

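By edgeR's test of the interaction, the effect of one agent was called different between leaves with and without the other in 4 members. That is 2% of the 200, beside 3.8% of all tested IDs. The interaction was 1.32 on the log2 scale for EPlOING00000046190, 1.02 for EPlOING00000030572, 1.13 for EPlOING00000038567 and 0.74 for EPlOING00000030568. Only the call of EPlOING00000046190 stayed in all 19 alternatives, and the others, in the order given, were lost in 4, 8 and 8 of them. With library sizes alone the members called were 2 positive and 4 negative, or 3% of the 200, beside 4.54% of all tested IDs.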

How the results depend on the processing

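The members called in azoxystrobin, VdAL and the combination against water numbered 9, 11 and 6 with DESeq2, 5, 9 and 4 with library sizes alone, and 1, 2 and 1 in fits of the compared groups only. In those last fits the member called for azoxystrobin was not one of those reported above. The members called there for VdAL and the combination were. The share of all tested IDs called was 5.36%, 6.38% and 4.01% with DESeq2, 2.89%, 3.55% and 1.74% with library sizes alone and 1.67%, 2.13% and 0.873% in the compared groups only, beside 2.66%, 3.55% and 1.71% in the fit reported. With a covariate for multiply aligned reads, azoxystrobin had 5. Without a filter the 7 counts were 16, 18 and 20 against water, 8 for the combination against azoxystrobin, 13 against VdAL, 6 for VdAL against azoxystrobin and 20 for the interaction, or 8%, 9%, 10%, 4%, 6.5%, 3% and 10% of the members, beside 3.79%, 3.94%, 2.87%, 2.24%, 2.58%, 0.148% and 4.8% of all IDs tested. That fit estimated an infinite prior, so each ID's own spread had no weight in it. DESeq2 gave 2 for the combination against azoxystrobin, 3 against VdAL, 1 for VdAL against azoxystrobin and 11 for the interaction. The compared groups alone gave 5 for the combination against VdAL, or 2.5% of the members, beside 1.9% of all tested IDs. Leaving out each library in turn gave 0 to 7 in azoxystrobin, 0 to 10 in VdAL, 1 to 14 in the combination, 0 to 1 for the combination against VdAL and 1 to 13 for the interaction. Over all tested IDs, leaving out a library gave 0.594% to 3.46% in azoxystrobin, 0.665% to 3.98% in VdAL, 0.501% to 3.24% in the combination and 1.32% to 5.71% for the interaction. The cause of these shifts was not tested.

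RLE factors and scaling on the BGIOSGA IDs kept every count within 1.5 times. Of the 18 single calls 18 kept their direction in every alternative and 2 stayed called in all of them. The deviations of same-numbered libraries from their group means correlated at r = −0.205 to 0.104. These values cannot tell whether such libraries shared an area or a plant. With the replicate block 2, 6 and 3 members were called in azoxystrobin, VdAL and the combination against water, and 4 for the interaction. These are 1%, 3%, 1.5% and 2% of the 200, beside 2.31%, 3.06%, 1.52% and 2.9% of all tested IDs. Of the 3 in the combination, 2 were calls of the fit reported, and EPlOING00000025640 and EPlOING00000046540 were lost there. Ranking by median CPM kept 194 of the 200 members and ranking by TMM-scaled CPM kept 200.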
